A study of Homo sapiens with 8 samples.

Results

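The collagen prolyl and lysyl hydroxylases are 10 genes of the 30386 in the deposited table: the 3 prolyl 4-hydroxylase alpha subunits (P4HA1, P4HA2, P4HA3), the 4 members of the prolyl 3-hydroxylase family (P3H1, P3H2, P3H3, P3H4) and the 3 lysyl hydroxylases (PLOD1, PLOD2, PLOD3). They were found by gene name, and all 10 were present. The group was chosen from earlier results on these read counts, so the values of its members, and whether each was called in the fit over all genes, are given as a description and are no independent test of the group. Messenger RNA had been sequenced from endothelial cells (iEC, n = 4) and retinal endothelial cells (iREC, n = 4), both differentiated from the established line WTC-TJP1 of human induced pluripotent stem cells and both taken at passage 1. The labels name no agent, allele or time that separates the groups, and give the same cell type, endothelial cells derived from stem cells, for both. A single line was used, so variation between donors was not sampled. Samples are named by group and by the letters C to F that the labels give both groups. Nothing in the labels says that samples of a group came from separate differentiations, and p-values measure the spread between these samples only.

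Collagen chains are hydroxylated in the endoplasmic reticulum before they fold into a triple helix, by enzymes that use iron, 2-oxoglutarate, oxygen and ascorbate. Prolyl 4-hydroxylases, tetramers of P4HA alpha subunits with protein disulfide isomerase P4HB, make the 4-hydroxyproline that keeps the helix stable. Prolyl 3-hydroxylases modify fewer prolines: P3H1 works in a complex with CRTAP and the cyclophilin PPIB, P3H2 is known for its action on the type IV collagen of basement membranes, and P3H4 has no known hydroxylase activity and joins P3H3 and PLOD1 in a complex that modifies lysines. Lysyl hydroxylases make the hydroxylysine needed for stable crosslinks and for sugar attachment. PLOD2 hydroxylates the telopeptides, the short ends outside the helix, and PLOD3 also has glycosyltransferase activity. Endothelial cells lay down basement membrane, in which type IV collagen is the main collagen.

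P3H2 and PLOD2 were the 2 members whose log2 fold change between the groups exceeded 2, and the sequences before their starts are printed because both were higher in iREC, although their order within the 4 iREC samples was not the same. PLOD2 and P4HA1 are known targets of the hypoxia-inducible factor HIF. The RefSeq promoter table (GRCh38.p14) matched 8 of the 10 members with 9 windows. In each, the 250 bases before the start were searched on both strands for ACGTG, a form of the core of the HIF-binding element. The form with G as its first base was not searched. Among all 35116 windows of that length in the table, 18.5% held ACGTG. The members' windows held it in 3 of 9, which were those of the inner of 2 P3H2 starts, of PLOD2 and of P4HA1. The windows of P4HA2 and PLOD3 lay wholly in GENCODE exons of their own genes. The P4HA1 window had 108 bases in such exons, and its match lay among those bases. The run printed for P3H2 is on the minus strand at chr3:190120930-190121147, inside the span of the gene, and leaves out 32 bases of the window that lie in its GENCODE exons. The PLOD2 run is on the minus strand at chr3:146161185-146161434, inside the span of its gene and in none of its exons. Both run 5′ to 3′, with ACGTG or its reverse complement in capitals.
P3H2: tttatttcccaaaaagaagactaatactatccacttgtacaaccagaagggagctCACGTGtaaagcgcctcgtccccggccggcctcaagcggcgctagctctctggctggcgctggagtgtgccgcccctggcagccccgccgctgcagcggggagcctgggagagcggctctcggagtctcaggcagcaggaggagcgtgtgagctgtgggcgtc
PLOD2: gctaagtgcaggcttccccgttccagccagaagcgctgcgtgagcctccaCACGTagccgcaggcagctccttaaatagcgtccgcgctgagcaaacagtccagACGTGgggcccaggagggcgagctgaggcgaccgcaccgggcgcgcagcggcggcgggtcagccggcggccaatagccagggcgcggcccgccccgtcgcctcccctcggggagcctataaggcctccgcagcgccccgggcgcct
The capitals in P3H2 are a palindrome in which 1 match per strand overlap, and PLOD2 has 2 separate matches. The window of the outer P3H2 start had no ACGTG on either strand. These matches describe letters and are not evidence that a factor was bound.

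The samples are bulk cultures, in which fewer cells of a type and less RNA per cell cannot be told apart. All 10 endothelial markers examined were detected in all 8 samples, and their summed level was 7153 to 10390 CPM (counts scaled to library size with TMM factors) in iEC and 5128 to 11060 CPM in iREC. Of the 10, 6 had a higher mean in iREC, and the sum joins genes that went apart without overlap between the groups. PECAM1 had 1927 to 2605 CPM in iEC and 493.2 to 854.9 CPM in iREC, and CDH5 and TIE1 were also lower in every iREC sample. TEK had 33.5 to 84.0 and 466.4 to 1118 CPM, and EMCN had 1.58 to 6.05 and 209.5 to 574.5 CPM. Of 13 mural and fibroblast markers, 12 had a higher mean in iREC, with or without iREC F. The exception was RGS5, with 161.9, 147.6, 95.4 and 61.1 CPM in iEC C to F. Its values in iREC C to F were 45.3, 29.5, 32.25 and 71.1 CPM. The sum of the 13 markers was 254.9 to 521.1 CPM in iEC against 1547, 2122, 1344 and 5890 CPM in iREC samples C to F. In iREC C, D and E the highest of the 13 were TAGLN (732.5, 556.8 and 317.7 CPM) and POSTN (531.4, 851.1 and 711.8 CPM). In 5 of the 13 every iREC sample was above every iEC sample. PDGFRB overlapped, with 2.145 to 17.6 CPM in iEC and 4.71 to 127.4 CPM in iREC. DCN, a defining fibroblast gene, had at most 1 count in any iEC sample. In iREC C, D, E and F it had 0.589, 17.7, 4.21 and 133.6 CPM. All 6 epithelial markers had a higher mean in iREC, but 2 of 6 without iREC F, with sums of 391.1 to 1174 CPM in iEC and 301.6 to 4924 CPM in iREC. Of 5 pluripotency markers 4 had a higher mean in iREC, or 3 without iREC F, with sums of 39.0 to 91.0 CPM and 53.3 to 504.8 CPM. NANOG had at most 2 counts in any sample, SOX2 at most 6 and POU5F1 at most 19. The sum in iREC F was mostly LIN28A, at 481.6 of 504.8 CPM. DPPA4 had the lower mean in iREC, with 30.35 to 57.9 CPM in iEC and 22.5 to 32.5 CPM in iREC. No marker was at 0 in all samples. The highest mural, epithelial and pluripotency sums and the lowest endothelial sum were all in iREC F, which was also the highest iREC sample for P3H2 and the lowest for PLOD2. The part of these markers in the differences that follow was not tested. Total counts were 14877502 to 16971865 per sample in iEC and 13739364 to 15987839 in iREC.

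Of the 10 genes, 9 passed the filter on low counts. Their lowest count in any sample was 285, so they were well measured in both groups. P4HA3 did not pass. Counts were compared with edgeR's quasi-likelihood test over all 15330 genes that passed, and a gene is called where its Benjamini-Hochberg adjusted p was under 0.05. By that rule 3 of the 9 were called higher in iREC (P3H2, PLOD2 and P3H4), where 13.2% of all tested genes were. None of the 9 was called lower by edgeR, DESeq2 or limma-voom, where edgeR called 11.7% of all tested genes, and 1 of the 9, PLOD3, was lower at an unadjusted p under 0.05. In 3 of the 9 the groups did not overlap in CPM, as for 29.1% of all tested genes. Since the members were chosen with this contrast in view, nothing is read from these counts. The median log2 fold change of the 9, taken as iREC minus iEC, was 0.14, and that of all tested genes was 0.02. In 7 of the 9 it lay within 0.6 of 0.

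**Figure D1:**
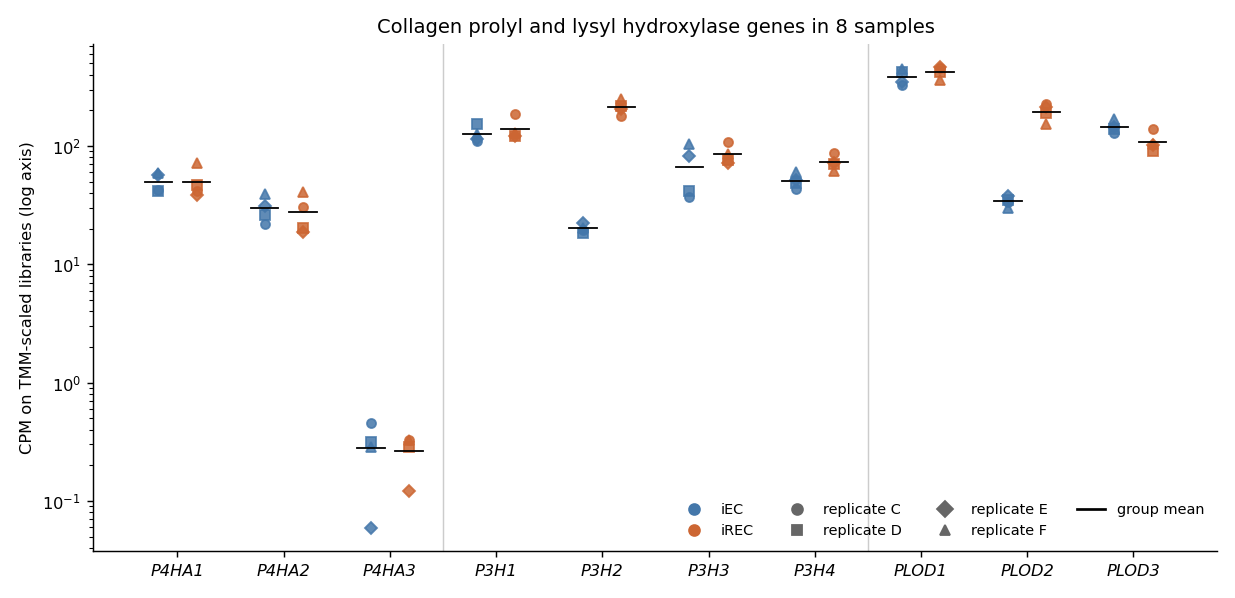
CPM of each hydroxylase gene on a log axis in the 4 iEC and 4 iREC samples, with a marker shape for each replicate letter and a line at each group mean. P3H2 and PLOD2 separate clearly, with their lowest iREC value 8.04 and 4.02 times their highest iEC value, while most other genes overlap between the groups.

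P3H2 (ENSG00000090530, minus strand, chr3:189956728-190122437) differed most. The iEC samples C, D, E and F had 19.6, 18.3, 22.4 and 20.4 CPM, and the iREC samples, in the same order, had 179.9, 219.2, 206.6 and 251.5 CPM. Every iREC sample was above every iEC sample, and the iEC values were nearly level. The means were 20.2 ± 1.69 CPM (SD, n = 4) in iEC and 214.3 ± 29.7 CPM (SD, n = 4) in iREC, a ratio of 10.6. On the log2 scale the fold change was 3.41 ± 0.14 (SE). Leaving out any 1 sample moved it only between 3.32 and 3.48, and P3H2 was called each time. The lowest came without iREC F, the sample that stood apart in the marker sums.

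P3H1 (ENSG00000117385, minus strand, chr1:42746335-42767084), the catalytic subunit of the complex with CRTAP, had 110.7, 153.9, 114.8 and 125.9 CPM in iEC C, D, E and F. In iREC it had 188.0, 120.3, 120.4 and 128.8 CPM. The groups overlapped, and iREC C stood above all other samples. Its fitted log2 fold change was 0.14 ± 0.18 (SE), not called, and was -0.039 without iREC C.

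P3H3 (ENSG00000110811, plus strand, chr12:6828410-6839851) had 37.1, 41.5, 82.2 and 103.4 CPM in iEC C, D, E and F. The iREC samples in the same order had 108.2, 75.8, 72.1 and 84.9 CPM. The iEC samples themselves split, with E and F in the range of iREC and C and D well below it, and the coefficient of variation in iEC was 48.6%, the highest of the 9 tested members in either group. The fit gave a log2 fold change of 0.37 ± 0.32 (SE), which was not called. Its exons share 114 bases with GPR162 on the same strand (2.48% of its exon length), a gene with at most 21.3 CPM here.

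P3H4 (ENSG00000141696, minus strand, chr17:41801947-41812604), the non-enzymatic partner in the P3H3 and PLOD1 complex, had 43.0, 49.1, 51.6 and 60.4 CPM in iEC C, D, E and F. It had 86.6, 70.7, 72.2 and 61.4 CPM in the iREC samples. The groups only just failed to overlap, since iREC F was 1.02 times iEC F, and with DESeq2's size factors they overlapped. The means were 51.0 ± 7.21 CPM (SD, n = 4) and 72.7 ± 10.4 CPM (SD, n = 4). Its log2 fold change was 0.51 ± 0.15 (SE). The call held in 2 of the 8 fits with 1 sample left out, those without iEC F or without iREC F. It was lost with no filter on low counts and with the replicate letter as a block. Over the 8 fits the log2 fold change lay between 0.41 and 0.60. P3H4 starts 76 bases from the start of FKBP10, which is transcribed the other way and encodes a collagen-binding isomerase known as a partner of PLOD2. FKBP10 itself had a log2 fold change of 0.08 ± 0.15 (SE) and an edgeR adjusted p of 0.732.

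PLOD2 (ENSG00000152952, minus strand, chr3:146069440-146163653), the telopeptide lysyl hydroxylase, had 33.4, 35.3, 37.9 and 30.0 CPM in iEC C, D, E and F. In the iREC samples it had 226.6, 190.0, 213.0 and 152.6 CPM. All iREC samples were above all iEC samples. The means were 34.1 ± 3.35 CPM (SD, n = 4) and 195.5 ± 32.4 CPM (SD, n = 4), a ratio of 5.73. The fitted log2 fold change was 2.52 ± 0.15 (SE), and it lay between 2.44 and 2.62 with any 1 sample left out, called each time. Without iREC F it was 2.62.

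PLOD1 (ENSG00000083444, plus strand, chr1:11934205-11975538), which hydroxylates lysines within the helix, had 325.5, 422.0, 347.5 and 449.1 CPM in iEC C, D, E and F. Its iREC values were 456.4, 422.6, 465.0 and 359.0 CPM. The groups overlapped, and the log2 fold change was 0.14 ± 0.15 (SE), not called.

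PLOD3 (ENSG00000106397, minus strand, chr7:101205977-101218420) was the member with the lowest fold change. It had 128.7, 140.3, 145.4 and 169.6 CPM in iEC C, D, E and F, and 137.9, 90.7, 101.2 and 104.0 CPM in the iREC samples. Only iREC C lay within the iEC range. On the log2 scale the fold change was -0.43 ± 0.15 (SE) and was not called, but it was -0.57 and called without iREC C. With libraries scaled by their totals alone it was -0.42 and called, with an adjusted p that rounds to 0.05. PLOD3 shares 429 exon bases (7.56% of its exon length) with ZNHIT1 on the other strand, a gene with up to 140.8 CPM. Whether the authors' counting used the strand is not given in the sources used here, so the reads of these 2 genes may not be fully separate.

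Neither tested alpha subunit of prolyl 4-hydroxylase was called. P4HA1 (ENSG00000122884, minus strand, chr10:73007217-73096974) had 42.1, 41.5, 57.1 and 58.7 CPM in iEC C, D, E and F, against 41.6, 46.8, 38.9 and 71.7 CPM in the iREC samples. Its groups overlapped, with iREC E lowest and iREC F highest of all 8. Its fitted log2 fold change was -0.003 ± 0.22 (SE), not called. P4HA2 (ENSG00000072682, minus strand, chr5:132191838-132295315) had 22.0, 26.4, 31.3 and 39.3 CPM in iEC, and 30.6, 20.4, 18.7 and 41.1 CPM in iREC. It too was highest in iREC F and lowest in iREC E, and its log2 fold change of -0.10 ± 0.28 (SE) was not called. P4HA3 (ENSG00000149380, minus strand, chr11:74235801-74311657) had 7, 5, 1 and 4 counts in iEC C, D, E and F and 5, 4, 2 and 5 counts in iREC, close to the floor of 3 counts. Such counts allow no statement on a difference. It also shares 166 exon bases with PPME1 on the other strand, which had up to 133.8 CPM.

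**Figure D2:**
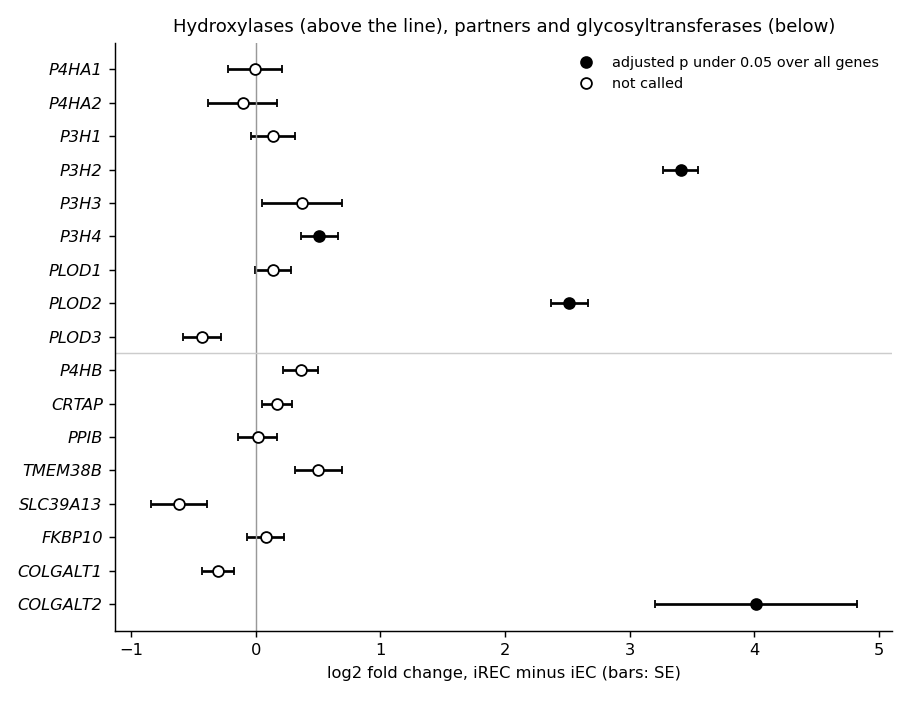
Fitted log2 fold change, iREC minus iEC, with its standard error, for the 9 tested hydroxylases above the line and for the partner and glycosyltransferase lists below it. Filled points are called over all genes. P3H2 at 3.41 and PLOD2 at 2.52 stand far from the other hydroxylases, and COLGALT2 at 4.01 is the one called gene below the line.

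Levels can be compared between genes only per length, here as TMM-scaled CPM per kilobase of the gene length in the deposited table. In iEC the mean levels ran in the order PLOD1 72.6, PLOD3 25.7, P3H1 18.7, P4HA1 16.1, P3H3 14.4, P3H4 13.6, PLOD2 4.47, P3H2 3.60, P4HA2 3.50 and P4HA3 0.07 CPM per kilobase. Of the neighbours in that order, PLOD1 and PLOD3, P3H4 and PLOD2, and P4HA2 and P4HA3 did not overlap over the 4 samples, and the others did. In iREC the order was PLOD1 80.0, P3H2 38.2, PLOD2 25.6, P3H1 20.6, P3H4 19.4, PLOD3 19.1, P3H3 18.5, P4HA1 16.1, P4HA2 3.26 and P4HA3 0.066 CPM per kilobase. There PLOD1 and P3H2, P3H2 and PLOD2, P4HA1 and P4HA2, and P4HA2 and P4HA3 did not overlap, and the genes from PLOD2 down to P4HA1 each overlapped the next. P3H2 thus stood at rank 8 in iEC and rank 2 in iREC, and PLOD2 at rank 7 and rank 3.

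Within its family, P3H2 made up 7.31 ± 1.24% (SD, n = 4) of the summed prolyl 3-hydroxylase level per kilobase in iEC and 39.8 ± 6.67% (SD, n = 4) in iREC. P3H1 had the largest mean share in iEC, 37.9 ± 7.86% (SD, n = 4), and held 21.1 ± 3.32% (SD, n = 4) in iREC. Shares of a family depend on one another, and the level of P3H1 itself was not called different. The family's summed level was 50.3 ± 8.94 CPM per kilobase (SD, n = 4) in iEC and 96.8 ± 7.56 (SD, n = 4) in iREC, with ranges of 39.4 to 60.9 and 89.6 to 106.6. Of the lysyl hydroxylases, PLOD2 held 4.42 ± 0.834% (SD, n = 4) in iEC and 20.4 ± 1.05% (SD, n = 4) in iREC. PLOD1 had the largest share in both groups, 70.5 ± 2.17% (SD, n = 4) and 64.2 ± 2.13% (SD, n = 4), and PLOD3 held 25.1 ± 1.69% and 15.4 ± 2.32% (SD, n = 4). The mean makeup of the alpha subunits was close in the groups, with P4HA1 at 81.9% in iEC and 83.0% in iREC and P4HA2 at 17.7% and 16.7%. Over the 8 samples the share of P4HA2 ran from 13.7% in iREC D to 21.0% in iREC C.

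**Figure D3:**
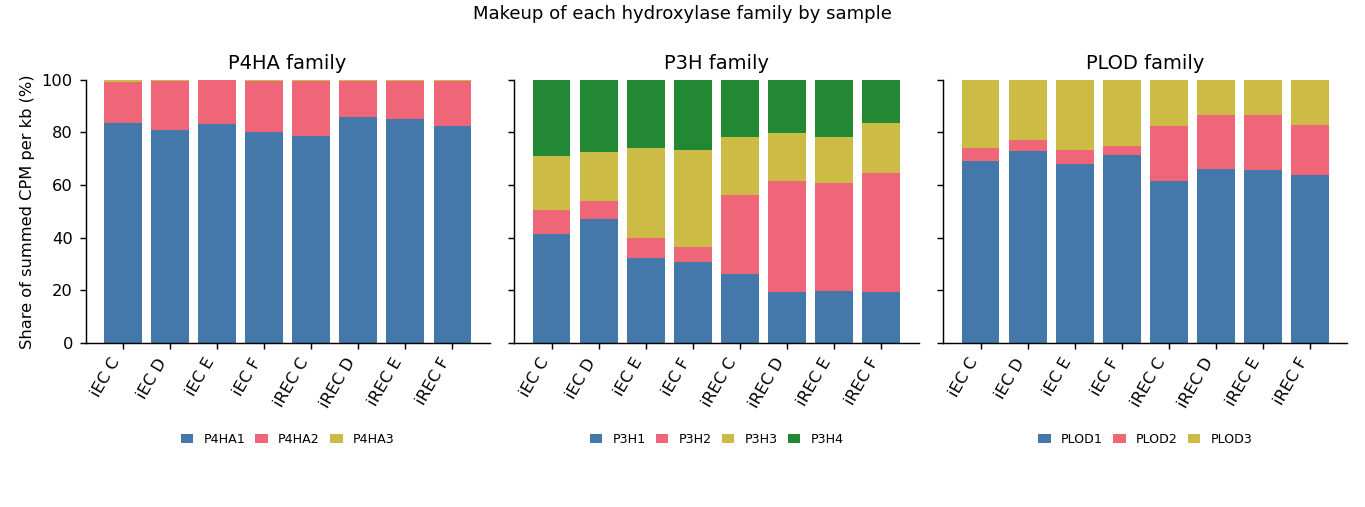
Stacked bars give, for each of the 8 samples, the share in percent of each gene in the summed CPM per kilobase of its family. P3H2 averages 7.31% in iEC and 39.8% in iREC, PLOD2 averages 4.42% and 20.4%, and the P4HA2 share runs from 13.7% to 21.0% over the 8 samples.

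Partners and substrates of these enzymes and related genes, HIF targets included, were examined in 9 lists of 109 different genes, of which 98 were tested. Among those, 17 were called higher in iREC (17.3%, where 13.2% of all tested genes were) and 14 lower (14.3%, where 11.7% were), and their median log2 fold change was 0.03. Without iREC D the calls in either direction were 18 in place of 31. None of the 6 partner proteins was called by edgeR, DESeq2 or limma-voom. At an unadjusted p under 0.05 in edgeR 2 were higher and 1 lower, and without iEC C 1 was called. P4HB, the beta subunit shared by all prolyl 4-hydroxylases, had 762.5 ± 86.8 CPM (SD, n = 4) in iEC and 979.4 ± 119 CPM (SD, n = 4) in iREC. Its groups did not overlap, but its log2 fold change of 0.36 ± 0.14 (SE) had an edgeR adjusted p of 0.0868. CRTAP and PPIB, the partners of P3H1, had log2 fold changes of 0.17 and 0.016 with edgeR adjusted p-values of 0.319 and 0.953. TMEM38B, an endoplasmic reticulum cation channel needed for normal collagen modification, had 0.50 ± 0.19 (SE) with an edgeR adjusted p of 0.0807 and no overlap.

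Chaperones and secretion genes gave 0 called higher and 2 called lower of 18 by edgeR, DESeq2 and limma-voom alike, with 1 higher at an unadjusted p under 0.05 in edgeR and a median log2 fold change of -0.19. Without iEC F the calls were 4. FKBP14, a collagen-binding isomerase, fell from a mean of 61.9 ± 9.20 CPM to one of 39.7 ± 5.16 CPM (SD, 4 samples each). The fit gave a log2 fold change of -0.64 ± 0.15 (SE), at an edgeR adjusted p of 0.0119. FKBP7 of the same family had -0.66 ± 0.15 (SE, edgeR adjusted p = 0.0129). SERPINH1, the collagen chaperone HSP47, had 0.06 ± 0.23 (SE) and an edgeR adjusted p of 0.887.

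Sugars are added to the hydroxylysine made by the PLOD enzymes. COLGALT2, a galactosyltransferase, had 2.21, 1.83, 1.06 and 1.503 CPM in iEC C, D, E and F and 5.37, 19.2, 9.40 and 73.2 CPM in iREC. All iREC values were higher, though 1 sample, iREC F, lay far above the rest. Its log2 fold change was 4.01 ± 0.81 (SE), at an edgeR adjusted p of 0.00662, and it was 2.77 and still called without iREC F. The replicate block gave 3.34, and limma-voom gave 3.32 and did not call it. COLGALT1 was present at 277.2 and 224.9 CPM and was not called (edgeR adjusted p = 0.109).

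Genes for procollagen processing and crosslinking gave 4 called higher and 1 called lower of 10 tested, with a median log2 fold change of 1.98. Without iEC E the calls were 3 in place of 5. TLL1, a tolloid-like protease that cleaves procollagen ends and activates lysyl oxidase, rose from a mean of 2.38 ± 0.734 CPM to one of 178.1 ± 64.3 CPM (SD, 4 samples each). The fitted log2 fold change was 6.21 ± 0.39 (SE), at an edgeR adjusted p of 2.0e-05. LOXL1, a crosslinking lysyl oxidase, had 8.32 CPM in iEC and 38.5 CPM in iREC (log2 fold change 2.21 ± 0.32 SE, edgeR adjusted p = 0.0012). LOXL3 had 0.871 and 5.59 CPM (edgeR adjusted p = 0.00468). LOXL4 went the other way, with 5.90 and 2.20 CPM (edgeR adjusted p = 0.0275), and its call held in 3 of 8 fits with 1 sample left out.

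**Figure D4:**
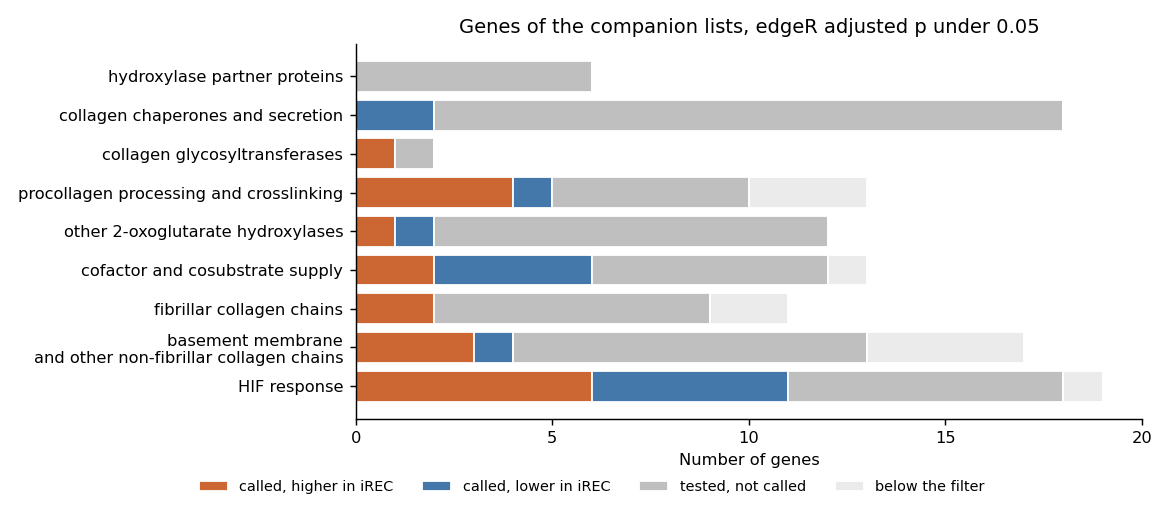
Number of genes called higher in iREC, called lower, tested but not called, and below the filter, for each of the 9 companion lists. The partner list has 0 calls in 6 genes, and the hypoxia-inducible factor list has 6 higher and 5 lower of 18 tested.

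The collagen chains that these enzymes act on were examined in 2 lists. Of 13 tested basement membrane and other non-fibrillar chains, 3 were called higher and 1 lower, with a median log2 fold change of 0.74. Of these 13, DESeq2's own test called 4 higher and 1 lower. It was run without the filter used for edgeR, and it called 7 of all 17 chains of the list. COL4A1, a chain of the main type IV collagen, had 3012, 3542, 1465 and 3112 CPM in iEC C, D, E and F and 6836, 6184, 7091 and 6158 CPM in iREC. The groups did not overlap, and the log2 fold change was 1.24 ± 0.26 (SE), at an edgeR adjusted p of 0.00726. COL4A2, its partner chain, rose from a mean of 2082 ± 692 CPM to one of 3725 ± 273 CPM (SD, n = 4; edgeR adjusted p = 0.0338), a call that held in 3 of 8 fits with 1 sample left out. COL8A1, a short-chain collagen of endothelial matrix, had 18.7 ± 21.4 CPM in iEC and 1236 ± 265 CPM in iREC (SD, 4 samples each). On the log2 scale the fold change was 6.05 ± 0.86 (SE), at an edgeR adjusted p of 0.00107. In iEC F it had 49.5 CPM, against 3.16 to 16.9 CPM in the other iEC samples, and without iEC F the log2 fold change was 7.18. It was 6.74 with the replicate block and 6.82 by limma-voom. COL13A1, a transmembrane collagen, fell from a mean of 103.3 ± 47.6 CPM to one of 6.95 ± 2.40 CPM (SD, 4 samples each). Its fitted log2 fold change was -3.90 ± 0.41 (SE), at an edgeR adjusted p of 0.000223.

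Of 9 tested fibrillar chains, 2 were called higher and 0 lower by edgeR, with a median log2 fold change of 0.86. At an unadjusted p under 0.05 in edgeR 1 was lower, and neither DESeq2 nor limma-voom called any lower. The calls were 4 by DESeq2's own test, 5 with the replicate letter as a block and 5 without iEC F. They were 1 without iEC C, iEC D, iEC E, iREC C, iREC D or iREC F. COL11A1 had 33.9 ± 17.3 CPM in iEC and 962.3 ± 129 CPM in iREC (SD, 4 samples each). The fit gave a log2 fold change of 4.83 ± 0.35 (SE), at an edgeR adjusted p of 3.9e-05. COL5A2 had 284.8 and 516.9 CPM (edgeR adjusted p = 0.0415), its groups overlapped, and the call held in 2 of 8 fits with 1 sample left out. Mural and fibroblast marker sums, which include chains of fibrillar collagen, were higher in iREC as given above. Their part in the collagen differences was not tested.

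The other 2-oxoglutarate hydroxylases gave 1 called higher and 1 lower of 12, with a median log2 fold change of 0.02. None was called without iEC C, iREC D or iREC E. The calls were 1 without iEC D, iEC E, iEC F or iREC F, with no filter and with the replicate block. P4HTM, a transmembrane prolyl hydroxylase not specific to collagen, had 26.3 and 27.9 CPM (edgeR adjusted p = 0.784). EGLN3, a prolyl hydroxylase that acts on HIF, had 1.30 and 7.29 CPM (edgeR adjusted p = 0.0395), and the call held in 2 of 8 fits with 1 sample left out. The log2 fold change of EGLN3 was 2.48, 3.46 without iEC D and 3.205 by limma-voom, and iEC E had 2 counts of it. JMJD6, a nuclear lysyl hydroxylase, had 46.9 and 33.0 CPM (edgeR adjusted p = 0.0369), which held in 3 of 8.

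Of 12 tested genes for cofactor and cosubstrate supply, 2 were called higher and 4 lower, with a median log2 fold change of -0.28. Without iREC D the calls were 3 in place of 6. IDH1, which makes 2-oxoglutarate in the cytosol, fell from a mean of 270.2 ± 23.3 CPM to one of 129.0 ± 25.2 CPM (SD, 4 samples each). Its log2 fold change was -1.07 ± 0.15 (SE), at an edgeR adjusted p of 0.0011. GSTO1, which can reduce dehydroascorbate, had -1.13 ± 0.23 (SE, edgeR adjusted p = 0.00663). GLUD1, which makes 2-oxoglutarate from glutamate, had -0.43 ± 0.10 (SE, edgeR adjusted p = 0.014). FTH1, the heavy chain of the iron store ferritin, rose from a mean of 168.6 ± 51.8 CPM to one of 397.7 ± 76.0 CPM (SD, n = 4; edgeR adjusted p = 0.00381). SLC2A1, a glucose transporter that also carries dehydroascorbate, had 29.4 and 55.5 CPM (edgeR adjusted p = 0.0328), a call that held in 4 of 8 fits with 1 sample left out.

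Targets of HIF went in both directions, with 6 called higher and 5 lower of 18 tested and a median log2 fold change of -0.22. Among the 6 were SLC2A1 and EGLN3, which were also in lists given above. In place of 11 calls there were 7 with the replicate block and without iEC C, iEC E or iREC E, 6 without iEC F and 4 without iREC D. VEGFA, the vascular growth factor, had 7.13 ± 2.73 CPM in iEC and 33.2 ± 8.37 CPM in iREC (SD, 4 samples each). The fitted log2 fold change was 2.22 ± 0.30 (SE), at an edgeR adjusted p of 0.000899. ADM, the vasodilator adrenomedullin, had 46.5 and 92.4 CPM (edgeR adjusted p = 0.00797), and PDK1, a kinase that inhibits pyruvate dehydrogenase, had 10.3 and 18.2 CPM (edgeR adjusted p = 0.0159). NDRG1 fell from a mean of 82.5 ± 20.4 CPM to one of 33.6 ± 2.22 CPM (SD, 4 samples each). On the log2 scale the fold change was -1.29 ± 0.19 (SE), at an edgeR adjusted p of 0.00131. ENO1, a glycolytic enzyme, had 2088 and 1386 CPM (edgeR adjusted p = 0.02), and INSIG2, a regulator of sterol synthesis, had 30.2 and 19.3 CPM (edgeR adjusted p = 0.0175). P4HA1, itself a target of this factor, was not called (log2 fold change -0.003 ± 0.22 SE), and PLOD2 was called higher in iREC, as given above. The part of this factor in these differences was not tested.

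Across the 8 samples, with each group's mean taken away, the log2 CPM of 13024 protein-coding genes was compared with that of P3H2 and of PLOD1, the members of highest mean level per kilobase in their families over all 8 samples, though P3H2 was the lowest of its family in iEC. P3H2 was most alike to PKP3, NTM and RAB3B, with Pearson r of 0.992, 0.986 and 0.986. PLOD1 was most alike to PLD1, LONRF3 and SNX30, with r of 0.982, 0.98 and 0.964. These are the highest of many correlations over 8 libraries and describe these samples only.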

How the data were processed

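The authors deposited 1 table of 30386 genes with raw read counts per gene and sample in 8 samples, which were used here. Per the file headers it also holds FPKM, used for an alternative level, and normalized signal, log2 fold changes and p-values of the authors, which were not used for any result. The deposited normalized signal is the counts divided by 1 factor per sample. The submitters' processing notes name fastp, HISAT2 2.0.5 and hg38; the counting program, its strand setting and the annotation are not given in the sources used here. All 30386 identifiers, starts and ends matched GENCODE 29, and coordinates are 1-based on hg38 (GRCh38).

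The members and lists were chosen with earlier results of these data known. Genes were filtered by filterByExpr, scaled by TMM and tested with glmQLFit and glmQLFTest of edgeR 4.0.16, with group as the only term; calls used a Benjamini-Hochberg adjusted p under 0.05 over 15330 genes. The script was tested on simulated data. Alternatives were scaling by DESeq2 size factors, by upper quartile or by library size alone, dropping the filter, a stricter filter (every sample of 1 group at 1 CPM or more, mean count 50 or more), DESeq2 1.42.0, limma-voom 3.58.1, the replicate letter as a block, and each sample left out. Log2 CPM used a prior count of 2. A floor of 3 counts was 0.178 to 0.215 CPM and covers counting error only. Named were all members, up to 3 called genes per direction and list by adjusted p, and P4HB, CRTAP, PPIB, TMEM38B, FKBP10, SERPINH1, COLGALT1, COLGALT2 and P4HTM, plus the 3 genes most alike to each family's member of highest mean level (for the P4HA family not reported here).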

Additional observations from a re-analysis of the deposited data

Results flagged for a closer look

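In groups of 4 samples, a sample was singled out where its gap to the nearest other sample took most of the group's range (Dixon's 95% limit). Of 106 groups examined, 6 had such a sample, and chance gives about 1 in 20, or 5.3. P3H1 had 188.0 CPM in iREC C, where the other iREC samples had 120.3 to 128.8. Its share of the prolyl 3-hydroxylase family was 26.1% in the same sample, against 19.3% to 19.8%. P4HB had 1156 CPM in iREC C, against 904.1 to 942.9. TLL1 had 1.29 CPM in iEC F, against 2.65 to 2.86. SLC2A1 had 35.8 CPM in iEC D, against 26.8 to 27.8, and NDRG1 had 52.4 CPM in the same sample, against 89.3 to 98.2.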

How the results depend on the processing

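Over 16 alternatives the number of hydroxylases called was 2 to 4 against 3. P3H2 and PLOD2 were called in all 16. P3H4 was not called with no filter (log2 fold change 0.49) or with the replicate block (0.51), and PLOD3 was called with library size only. Leaving out 1 sample gave 2 to 3 called members, 2660 to 4214 of all genes (3829 with all samples) and 18 to 35 genes of the companion lists. For all genes and the companion lists the lowest came without iREC D and the highest without iREC F, and the cause was not tested. With the replicate block the calls were 2 members, 28 companion genes and, for all genes called, 3334. Whether the letters pair the samples could not be settled from the deviations from the group means, with only 4 samples per group. Samples of the same letter correlated at 0.168, -0.079, 0.029 and 0.25 for C, D, E and F. Samples of different letters correlated at -0.221 to 0.178. DESeq2's own test called 4991 genes. Signs turned only for uncalled genes. The log2 fold change of P4HA1 was 0.021 with upper quartile scaling, 0.0034 with library size only and 0.018 with the stricter filter. The log2 fold change of PPIB was -0.0024 with no filter, -0.011 with limma-voom and -0.011 with the replicate block. With 1 sample left out, the log2 fold change ran from -0.23 to 0.10 for P4HA1, -0.36 to 0.0546 for P4HA2, -0.039 to 0.24 for P3H1, -0.10 to 0.13 for PPIB, -0.028 to 0.19 for FKBP10, -0.13 to 0.22 for SERPINH1 and -0.044 to 0.26 for P4HTM. The 160 level and 100 share recomputations, the deposited FPKM included, moved by less than 1 SD. Depth limited P4HA3 and 11 companion genes, which did not pass the filter, and the iEC levels of EGLN3 and LOXL3, each with a sample at or under 3 counts. The marker counts without iREC F were chosen after seeing the data.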
